A study of Mus musculus with 7 samples.

Results

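Among 10 Kruppel-like factor genes, Klf2 and Klf6 were those whose transcripts differed most between Mettl3-deleted and control haematopoietic stem cells (HSCs). The 10 genes described here (Klf2, Klf3, Klf4, Klf6, Klf7, Klf9, Klf10, Klf11, Klf12 and Klf13) were taken by symbol from a deposited table of 23038 genes, and all 10 were found there. Both groups were HSCs of C57BL/6 mice, sorted from hindlimb marrow as cells without lineage markers that carried Sca1, cKit and CD150 and lacked CD48. Controls (3 libraries) were littermates without Cre, with Mettl3 alleles that the labels do not give. Mutants (4 libraries) were Mx1-cre; Mettl3fl/fl. Each library was made by Smart-seq2, a full-length cDNA method for small inputs, from 150 cells. Animals of both groups had received pIpC, an RNA mimic that induces interferon, in 5 doses of 10 µg, and were killed 10 days after the final dose. The Mx1 promoter responds to interferon and acts in many cell types, so the deletion is not restricted to HSCs by design.

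The table gives 1 value per gene and group in RPKM, reads scaled to the length of the gene model and the size of the library. The authors combined the libraries of a group into that value, so no value of a single library, spread or test is available, and no difference below has a replicate check. Differences are log2 ratios of mutant over control after adding a pseudocount of 1 RPKM to both, which shrinks the differences of low genes. Where a fold is given for a gene, it is the ratio of its deposited values without the pseudocount. Counts of genes at least 2-fold apart use the log2 ratios with the pseudocount unless stated. Steps in the low values correspond, if a step is 1 read, to libraries of about 19600000 to 31100000 reads in controls and 25700000 to 37700000 reads in mutants. Mettl3, the m6A methyltransferase gene targeted by the deletion, had 49.8 RPKM in controls against 9.60 RPKM in mutants. In these bulk libraries, fewer cells with a transcript and less of it per cell cannot be told apart. Of 12 HSC marker genes all had reads, and their levels summed to 896 RPKM in controls against 661 RPKM in mutants. The stem cell factor receptor gene Kit was at 67.4 and 39.9 RPKM.

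Kruppel-like factors are transcription factors that bind GC-rich and CACCC sequences through 3 zinc fingers at the carboxyl end, and their amino-terminal regions recruit different cofactors. KLF2, KLF4, KLF6 and KLF7 contain activation domains, and KLF2 is known for keeping lymphocytes quiescent and for controlling their traffic. KLF3 and KLF12 recruit the corepressor CtBP. KLF9, KLF10, KLF11 and KLF13 recruit the Sin3 corepressor complex. Several of the genes, Klf2, Klf4, Klf6 and Klf10 among them, are known to be induced rapidly by external stimuli. Mettl3 places N6-methyladenosine (m6A) on mRNA, with GGAC followed by U among its preferred sequences and a preference for the region around the stop codon.

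The sequence just upstream of the annotated start is shown for the 3 members with the lowest log2 ratios and for Klf13, a member that was higher in mutants. Sequences are the sense strand of each gene, 250 bases long, from RefSeq on GRCm38.p6. Capitals mark matches on either strand to the cAMP response element core (TGACG), the E box (CACGTG), the CCAAT box (CCAAT) and the MEF2 consensus.
Klf2 (chr8:72318812-72319061, plus strand): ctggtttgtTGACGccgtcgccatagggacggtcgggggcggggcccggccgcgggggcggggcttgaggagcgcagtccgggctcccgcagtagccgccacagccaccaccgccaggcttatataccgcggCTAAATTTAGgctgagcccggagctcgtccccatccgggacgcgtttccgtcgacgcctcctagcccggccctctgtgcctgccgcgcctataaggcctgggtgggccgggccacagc
Klf6 (chr13:5861239-5861488, plus strand): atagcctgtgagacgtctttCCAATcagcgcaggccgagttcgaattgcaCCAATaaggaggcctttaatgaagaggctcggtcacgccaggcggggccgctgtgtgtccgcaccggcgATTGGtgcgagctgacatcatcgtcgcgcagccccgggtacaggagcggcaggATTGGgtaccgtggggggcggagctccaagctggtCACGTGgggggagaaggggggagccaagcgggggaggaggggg
Klf4 (chr4:55532476-55532725, minus strand): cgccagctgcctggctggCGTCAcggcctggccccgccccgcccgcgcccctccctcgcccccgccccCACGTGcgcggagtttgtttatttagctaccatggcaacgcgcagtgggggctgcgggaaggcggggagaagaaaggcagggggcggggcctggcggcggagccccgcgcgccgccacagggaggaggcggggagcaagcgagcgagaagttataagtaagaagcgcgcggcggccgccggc
Klf13 (chr7:63938916-63939165, minus strand): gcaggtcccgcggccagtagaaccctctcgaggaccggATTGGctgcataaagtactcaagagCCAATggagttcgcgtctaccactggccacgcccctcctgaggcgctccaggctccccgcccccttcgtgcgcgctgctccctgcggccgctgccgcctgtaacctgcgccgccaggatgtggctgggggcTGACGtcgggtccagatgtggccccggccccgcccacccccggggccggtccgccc

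RefSeq gave a promoter for 9 members (Klf10 was not matched), and matches were compared with the same 250 bases of 32851 promoters. The MEF2 consensus was found in Klf2, 118 to 109 bases before the start, and in none of the other 8 members, against 2.92% of all promoters. MEF2 factors are known to drive Klf2 downstream of the kinase ERK5. Klf6 had 4 copies of the CCAAT box, the most among the 9, and an E box 43 to 38 bases before the start. The E box was found in 3 members (Klf4, Klf6 and Klf11) and in 6.02% of all promoters. The cAMP response element core was found in 5 members (Klf2, Klf4, Klf9, Klf12 and Klf13), against 17.8% of all promoters. The CCAAT box was found in 4 members against 33.8%, the GC box (GGGCGG) in 7 against 32.7%, and CACCC, the sequence that KLF proteins bind, in 6 against 52.0%. No member had the AP-1 site TGACTCA (4.46% of all promoters) or the CArG box bound by SRF (1.47%). Matches were counted on both strands and separately for each motif, and none of the matches in capitals overlap. GC content ran from 48% in Klf12 to 78.4% in Klf3, with 71.2% in Klf2, 64.8% in Klf6 and 74% in Klf4, against a median of 52.4% over all promoters. No motif searched was shared by Klf2, Klf4 and Klf6 and missing from the other 6 members.

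The levels of the 10 genes covered a 177-fold range in controls, from 59.7 RPKM for Klf6 to 0.336 RPKM for Klf12. In controls the order was Klf6, Klf10, Klf2, Klf13, Klf3, Klf11, Klf9, Klf4, Klf7 and Klf12. In mutants Klf10 was first, at 45.2 RPKM, followed by Klf13, Klf6, Klf11, Klf3, Klf9, Klf2, Klf7, Klf4 and Klf12. Klf2 held rank 3 in controls and rank 7 in mutants, and Klf6 held ranks 1 and 3. Without a spread, it cannot be said which neighbours in either order differ. The summed level of the 10 genes was 165 RPKM in controls against 118 RPKM in mutants. Klf2 and Klf6 made up 49.5% of this sum in controls and 20.4% in mutants. The other 8 genes together were at 83.4 and 93.8 RPKM.

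**Figure D1:**
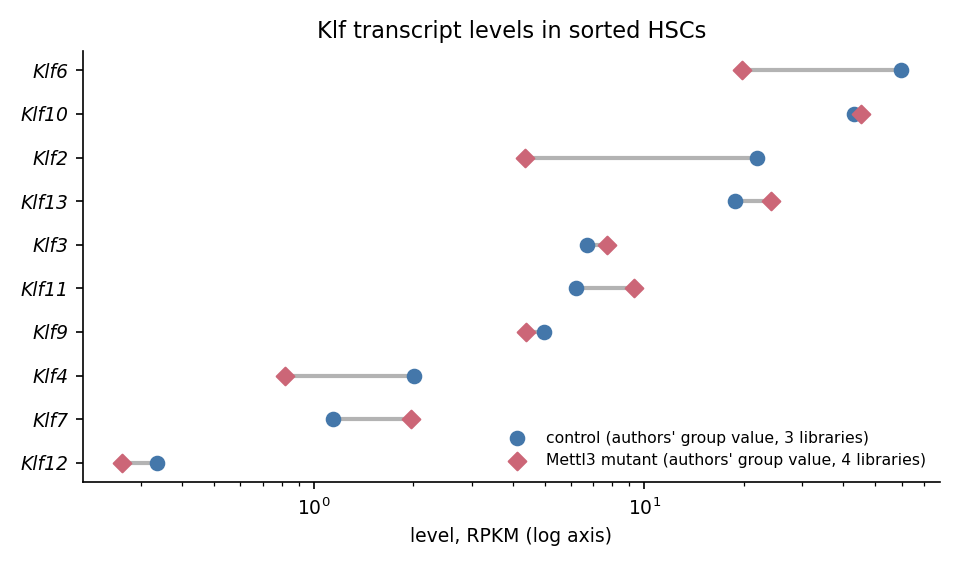
Level of each Klf member in RPKM (log axis) in controls (circles) and Mettl3 mutants (diamonds), 1 deposited value per group with no error available, ordered by the control level. Klf6 lies at 59.7 RPKM in controls against 19.7 RPKM in mutants and Klf2 at 21.9 and 4.35 RPKM, while the markers of Klf10 nearly touch at 43.2 and 45.2 RPKM.

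Against controls, 5 members were lower in the mutant value and 5 were higher, with a median log2 ratio of -0.01. The median over the 14539 genes with reads in a group was 0.02, and 47.4% of these genes were lower. Klf2 and Klf6, 2 of the 10 members, were at least 2-fold lower, a size reached by 3.47% of all genes. None of the 10 was at least 2-fold higher, against 3.67% of all genes. On the pseudocount scale the other 8 members lay within 2-fold, against 7.14% of all genes that were at least 2-fold apart in either direction. At 1.5-fold, 3 members were lower, against 10.4% of all genes, and none was higher, against 13% (23.4% of all genes in either direction). Among the 4 members with at least 10 RPKM in a group, 2 were at least 2-fold lower, where 2.47% of the 6607 genes at that level were (3.36% were at least 2-fold higher, 5.83% in either direction). Klf2 reached 10 RPKM in controls only, so its place in that count depends on its control value. The members are few and were chosen with earlier results of these data known. These counts therefore describe them and are not a test of the family.

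**Figure D2:**
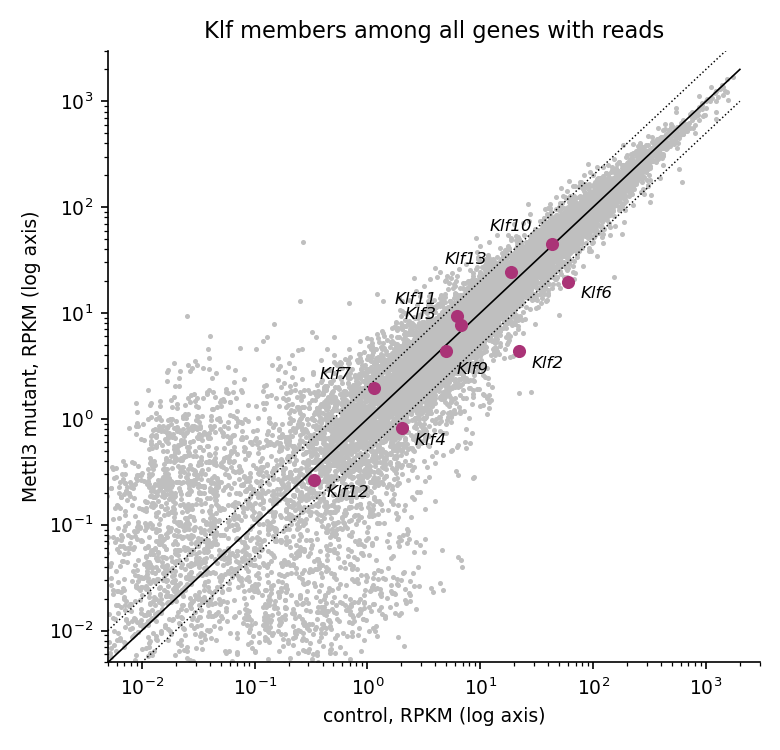
Mutant against control level in RPKM (both axes log) for genes with reads in a group (grey; values under 0.005 RPKM fall outside the axes) and for the 10 Klf members (purple), with the line of equal values (solid) and of 2-fold differences (dotted). Klf2, Klf6 and Klf4 lie below the lower dotted line, at ratios of 0.198, 0.330 and 0.406, and the other 7 members lie between the dotted lines.

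Klf2 (NCBI Gene 16598, chromosome 8, 72319062 to 72321654, GRCm38.p6) had 21.9 RPKM in controls against 4.35 RPKM in mutants. The mutant value was 19.8% of the control value, a 5.05-fold lower level and a log2 ratio of -2.10. Counted from the most negative log2 ratio, Klf2 held rank 38 of the 11582 genes that reached 1 RPKM in a group. Taking the GENCODE transcript of 1847 bases, the levels correspond to about 977 reads per control library and 229 per mutant library. Klf2 and Klf13 were at similar levels in controls, with a ratio of 1.16, whereas in mutants this ratio was 0.180.

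Klf6 (NCBI Gene 23849, chromosome 13, 5861489 to 5870393), a gene needed for blood formation in the yolk sac, had 59.7 RPKM in controls against 19.7 RPKM in mutants. It was 3.03-fold lower in mutants, with a log2 ratio of -1.55, at rank 130 from the lowest. Its level was 1.38 times that of Klf10 in controls and 0.436 times in mutants. The estimate was about 6085 reads per control library and 2391 per mutant library (transcript of 4225 bases). Klf6 was thus the most abundant member in controls and ranked after Klf10 and Klf13 in mutants.

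Klf4 (NCBI Gene 16600, chromosome 4, 55527137 to 55532475), a pluripotency factor that also promotes monocyte differentiation, was low, at 2.01 RPKM in controls against 0.816 RPKM in mutants. The deposited values differed 2.47-fold, but the log2 ratio with the pseudocount was -0.73, short of the 2-fold line. With a pseudocount of 0.1 RPKM it was -1.21 and without one -1.30, past that line. The rough estimate of reads was 146 and 70 per library. Klf7 (NCBI Gene 93691, chromosome 1, 64029448 to 64122345), the closest relative of Klf6 and known from axon growth, went the other way, at 1.14 RPKM in controls against 1.97 RPKM in mutants (log2 ratio 0.47). The pair thus differed in direction.

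The genes of the CtBP-binding repressors were close between the groups. Klf3 (NCBI Gene 16599, chromosome 5, 64803521 to 64832901), which acts downstream of Klf1 in red cells, had 6.69 RPKM in controls against 7.73 RPKM in mutants, a log2 ratio of 0.18. Klf12 (NCBI Gene 16597, chromosome 14, 99866181 to 100285891), a repressor of the AP-2 alpha gene, was the least abundant member, at 0.336 and 0.263 RPKM. Its log2 ratio was -0.08, with a rough estimate of 47 and 43 reads per library. Klf8, the third gene of this class and not among the 10, was at 1.31 and 1.99 RPKM.

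Of the 4 Sin3-binding members, 3 were higher in the mutant value and Klf9 was lower. Klf10 (NCBI Gene 21847, chromosome 15, 38291464 to 38300711), an early gene of TGF-beta signalling, had 43.2 RPKM in controls against 45.2 RPKM in mutants, a log2 ratio of 0.06. It is an abundant and rapidly inducible member, yet its values differed far less than those of Klf2 and Klf6. Klf11 (NCBI Gene 194655, chromosome 12, 24651371 to 24662782), a related TGF-beta-inducible gene, was at 6.20 and 9.33 RPKM. Its log2 ratio of 0.52 was the highest of the 10. Klf13 (NCBI Gene 50794, chromosome 7, 63886351 to 63938915), which activates the chemokine gene Ccl5 in T cells, was at 18.9 and 24.1 RPKM, a log2 ratio of 0.34. Klf9 (NCBI Gene 16601, chromosome 19, 23141226 to 23168129), a target of glucocorticoid and thyroid hormones, was at 4.98 and 4.38 RPKM, a log2 ratio of -0.15.

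Leaving out Klf2, Klf4 and Klf6, the other 7 members lay between -0.15 and 0.52, with 5 higher and 2 lower in the mutant value. Over the 45 pairs of members, the longest identical stretch of their transcripts was 26 bases, against reads of 100 bases, and no pair shared 100 bases or more. The longest stretch, in the coding sequence of Klf6 and Klf7, is printed because these genes went in opposite directions.
Klf6 and Klf7: gacaggtgtttctccaggtctgacca

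Of the 7 other Klf genes, Klf14 and Klf17 had no reads, and the remaining 5 were higher in the mutant value. Klf1, the erythroid factor, had 4.50 RPKM in controls against 7.13 RPKM in mutants, and Klf16 had 3.02 and 4.85 RPKM. Klf15 had no reads in controls, where its value of 0.0180 RPKM is the offset, and was at 1.51 RPKM in mutants. With a log2 ratio of 1.30, it was the 1 gene of these 5 at least 2-fold higher, against 3.67% of all genes. Klf5 was low, at 0.0116 and 0.242 RPKM, and was also at least 2-fold higher without the pseudocount. Sp factors, which share the zinc finger type, were measured with reads in 6 of 9 genes, and none was 2-fold apart with the pseudocount. Sp3 was at 10.7 and 12.4 RPKM, Sp2 at 4.58 and 6.22 RPKM, Sp1 at 3.34 and 4.17 RPKM and Sp4 at 1.35 and 1.44 RPKM. Sp5 (0.366 RPKM in controls) and Sp6 (0.0699 RPKM) each came from whole reads of a single control library, 53 and 20 reads, and had none in mutants. Without the pseudocount both counted as at least 2-fold lower. The Klf and Sp genes outside the 10 members that had more than 1 RPKM in a group were thus all higher in the mutant value. Among the members above that level, Klf2, Klf4, Klf6 and, by a small margin, Klf9 were lower.

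Immediate early genes are known for transcription that starts without new protein when a cell is stimulated. A list of 35 such genes and genes related to them, without Klf genes, was compared beside Klf2, Klf4 and Klf6. Of 34 with reads, 24 were lower and 10 higher in the mutant value, where 47.4% of all genes were lower. Their median log2 ratio was -0.54. At least 2-fold lower were 13, against 3.47% of all genes, and none was at least 2-fold higher. Without the pseudocount, 17 were lower and 1 higher (Egr2), against 1674 and 1981 of the 14539 genes. Among the 17 with at least 10 RPKM in a group, 12 were at least 2-fold lower, against 2.47% of all genes at that level. Atf3, Fosb and Jun (20.8 and 9.48 RPKM) reached that minimum in controls only. The stress factor gene Atf3 had 10.6 RPKM in controls against 1.35 RPKM in mutants. The AP-1 gene Fosb had 11.6 and 2.44 RPKM, and Fos had 617 and 171 RPKM. Ier2 had 319 and 112 RPKM. The log2 ratios of Klf2 (-2.10) and Klf6 (-1.55) lay in the range of these 4 genes. These 4 were the list's lowest, from -2.30 for Atf3 to -1.50 for Ier2. Klf4 (-0.73) lay closer to the list median of -0.54. Klf10 (0.06) lay among the listed genes that hardly differed, such as Maff (0.01) and Srf (0.08). The highest of the list were Egr2 (0.36) and Jund (0.34). What the immediate early genes and these Klf genes share was not tested.

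**Figure D3:**
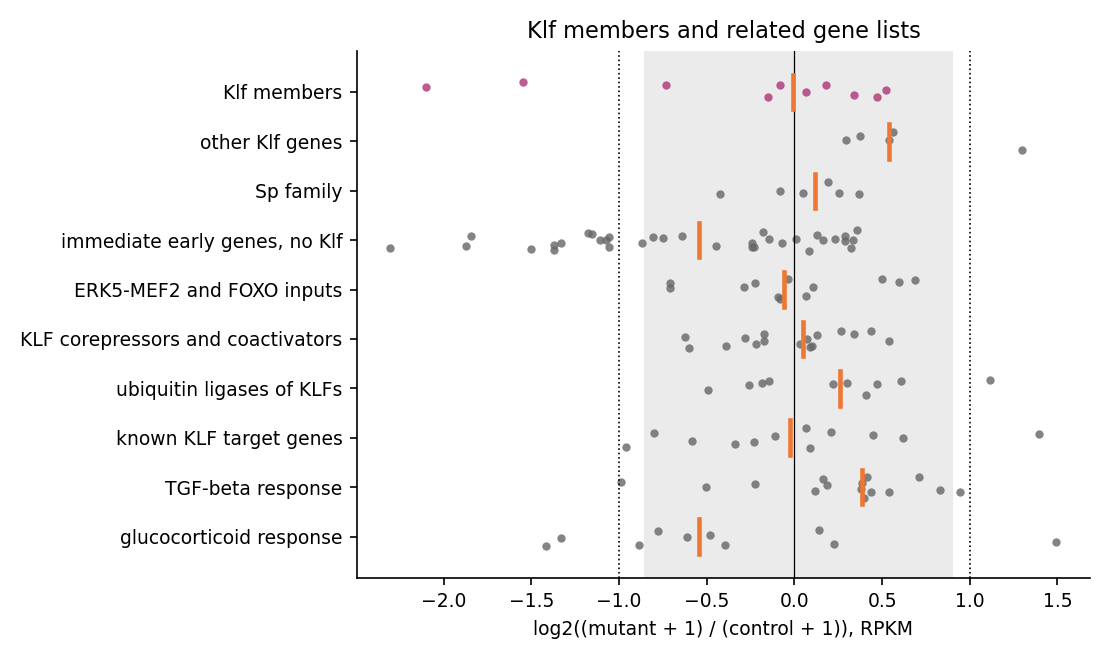
Log2 ratio of mutant over control (pseudocount 1 RPKM) for each gene with reads, by gene list, with the list median (orange bar), the 2-fold lines (dotted) and the range that holds the middle 90% of all genes (grey band). Klf2 and Klf6 lie left of the 2-fold line at -2.10 and -1.55, as do 13 immediate early genes in their own row, while the median of the Klf members lies at -0.01.

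Genes of the inputs to Klf2 and Klf4 showed no 2-fold difference. Of 12 with reads in the list of ERK5-MEF2 and FOXO genes, 5 were higher and 7 lower, with a median of -0.06. Mef2a had 8.78 RPKM in controls against 14.7 RPKM in mutants, and Mef2d had 3.67 and 6.06 RPKM. Both encode factors that bind the MEF2 consensus. Hdac7 had 7.62 and 4.26 RPKM and Hdac5 5.32 and 2.86 RPKM, and both encode deacetylases that repress MEF2. Mapk7, which encodes ERK5, had 2.73 and 4.26 RPKM, and Map2k5, which encodes its activating kinase, 44.2 and 41.4 RPKM. Mef2c, the most abundant Mef2 gene, was nearly equal at 28.01 and 29.3 RPKM, and Mef2b had no reads.

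The 16 corepressors and coactivators also held no 2-fold difference, with 9 higher, 7 lower and a median of 0.05. Ctbp1 had 83.9 RPKM in controls against 114 RPKM in mutants, and Ctbp2 had 7.07 and 10.7 RPKM. Their products are the partners of KLF3 and KLF12. The acetyltransferase gene Crebbp was at 15.5 and 9.84 RPKM. Of 10 ubiquitin ligase genes, Wwp1 was at least 2-fold higher, at 1.24 RPKM in controls against 3.87 RPKM in mutants. WWP1 is known to mark KLF2 and KLF5 for degradation. Siah1b was at 16.7 and 25.9 RPKM and Fbxo32 at 3.17 and 1.96 RPKM, and the list had 6 higher, 4 lower and a median of 0.26.

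Known target genes of KLF2, KLF3 or KLF4 went both ways, 6 higher and 6 lower of 12 with reads, with a median of -0.02. The KLF2 target S1pr1, a receptor gene for exit from tissues, had 14.2 RPKM in controls against 9.18 RPKM in mutants. S1pr1 was lower in the mutant value, as Klf2 was, but it was named after its value was seen. The 6 higher targets went the other way, and a link to Klf2 was not tested. Itgb7, an integrin gene, was at 15.02 and 7.22 RPKM (log2 ratio -0.96). The CDK inhibitor gene Cdkn1c was at 70.2 and 39.8 RPKM and Birc5, a mitotic gene, at 29.1 and 45.2 RPKM. Lgals3, the galectin-3 gene, was at 0.0289 and 1.71 RPKM and was the list's single gene at least 2-fold apart with the pseudocount. Without it, 2 were lower, Itgb7 among them, and 2 higher. Ccr7 and Il7r had no reads in either group.

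Klf10 and Klf11 belong to the early response to TGF-beta, and 12 of 15 genes of this response with reads were higher in the mutant value, with a median of 0.39 and none 2-fold apart with the pseudocount. Without it, 1 was at least 2-fold higher (Tgfb1) and 1 lower (Smad3). The ligand gene Tgfb1 had 3.69 RPKM in controls against 8.03 RPKM in mutants and Id1, a target, had 19.8 and 35.9 RPKM. Smad4 was at 6.65 and 11.5 RPKM, whereas Smad3, another signal transducer, was lower, at 6.71 and 2.89 RPKM. Of 10 glucocorticoid-responsive genes, the list beside Klf9, 7 were lower and 3 higher, with a median of -0.55. Tsc22d3 was at 123 and 45.6 RPKM, Per1, a clock gene, at 3.53 and 1.46 RPKM, and Cebpd at 1.09 and 4.90 RPKM. Dusp1 (582 and 230 RPKM) is also on the immediate early list. Klf9, with a log2 ratio of -0.15, lay closer to equality than the median of that list.

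Copies of GGACT, which is among the preferred m6A sequences and is written in DNA letters, were located on the sense strand. The longest coding transcript of each member in GENCODE M21 was used. Other preferred sequences were not counted. The copy nearest the stop codon is shown for Klf2, Klf6 and Klf4 and, for comparison, for Klf10, whose level hardly differed. Capitals mark GGACT, and 10 bases are given on each side, with coordinates on GRCm38.
Klf2 (chr8:72319475-72319499, plus strand): acaacgtgttGGACTtcatcctctc
Klf6 (chr13:5867485-5867509, plus strand): gggtgaccccGGACTcaccactggt
Klf4 (chr4:55527792-55527816, minus strand): gaacatgcccGGACTtacaaaatgc
Klf10 (chr15:38295591-38295615, minus strand): tacacattggGGACTttgtttttgc

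All 10 transcripts had at least 1 copy, as did 92.1% of 9971 genes with a coding transcript and at least 1 RPKM in a group. Klf2 had 1 copy, in the coding sequence at position -933 counted from the end of the stop codon, or 0.541 per kb. Klf6 had 8 copies, 3 in the coding sequence and 5 in the 3′ UTR, or 1.89 per kb, the highest density of the 10. Klf4 had 5 copies (1.65 per kb), Klf10 had 1 (0.329 per kb) and Klf3 had 1 (0.192 per kb). The median was 1.14 per kb in the members and 1.04 per kb in the 9971 genes, whose middle 50% ran from 0.627 to 1.53 per kb. A copy within 400 bases of the stop codon was found in 6 of the 10 members and in 59.0% of the 9971 genes. Of the members with the lowest log2 ratios, Klf2 lay below that middle 50% and Klf6 above it. Whether the density of copies bears on the levels was not tested. Which copies are methylated was not measured in these data.

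**Figure D4:**
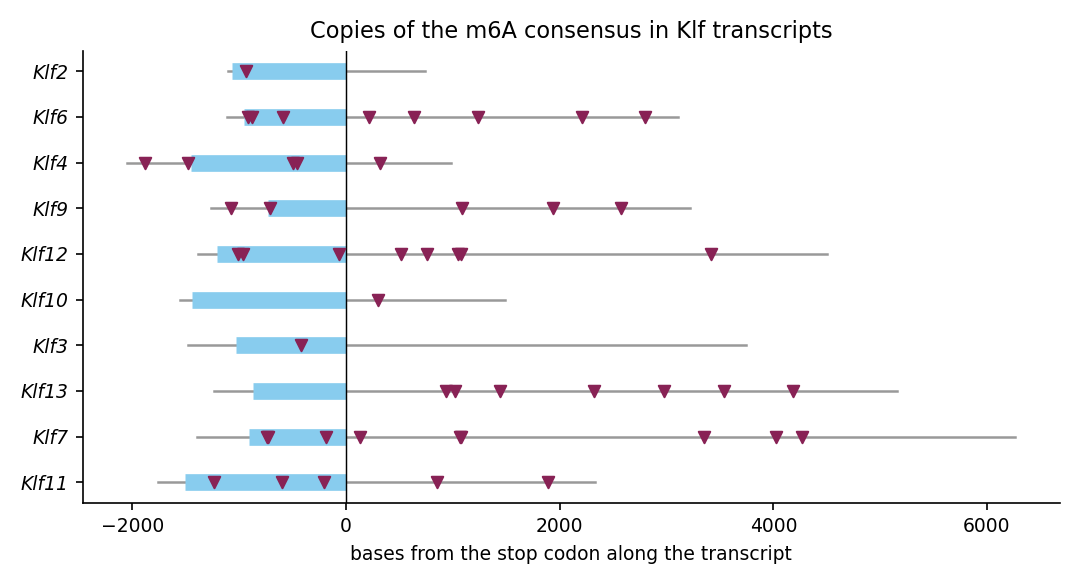
Position of each copy of GGACT (triangles) along the longest coding transcript of each member, in bases from the stop codon. The coding sequence is a blue bar and the untranslated regions are a grey line. Genes are ordered from the lowest log2 ratio at the top to the highest. Klf2 at the top has 1 copy and Klf6 below it has 8.

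Markers of cells known for high Klf2 or Klf4 were read beside these values. Of 11 T and natural killer cell markers in the table, 7 had no reads in either group (Cd2, Cd3e, Cd3g, Cd8a, Gzma, Klrd1 and Ncr1). Their sum was 128 RPKM in controls against 64.4 RPKM in mutants, nearly all of it Nkg7 (124 and 62.3 RPKM), and Cd4 was at 0.442 and 0.0856 RPKM. Of 15 macrophage and monocyte markers, 9 were higher and 2 lower, Ccr2, Csf1r, Cx3cr1 and Emr1 had no reads, and the sums were 435 and 402 RPKM. Cd68, a lysosomal gene, had 26.4 and 108 RPKM and the complement gene C1qa 0.212 and 1.38 RPKM. C1qb went the other way, at 1.87 and 0.904 RPKM, and C1qc was at 0.677 and 0.831 RPKM. Lyz2 made up most of both sums, with 406 and 289 RPKM. Cd14 had no reads in controls and 0.790 RPKM in mutants. Without the pseudocount, 7 of the list were at least 2-fold higher and 1 lower.

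Of 10 endothelial and stromal markers, where KLF2 and KLF4 are also known to be abundant, 5 were higher and 3 lower, and Col1a1 and Lepr had no reads. Their sums were 72.6 and 94.1 RPKM, with Pecam1 at 21.98 and 50.1 RPKM, Sparc at 1.335 and 3.9005 RPKM and the endothelial gene Cdh5 at 0.0158 and 0.0497 RPKM. Emcn went the other way, with 33.9 and 16.6 RPKM, and Tek, which HSCs are also known to express, had 14.5 and 22.5 RPKM. The neutrophil markers summed to 14.7 RPKM in controls against 7.33 RPKM in mutants, with 2 higher, 3 lower and 3 without reads (Ltf, Ngp and Retnlg). Camp, a granule protein gene, had 6.37 and 0.562 RPKM and S100a9 had 1.99 RPKM in controls and no reads in mutants. Mpo, the myeloperoxidase gene, went the other way, with 0.0492 and 1.43 RPKM. Neutrophil markers were low in both groups. The B and plasma cell markers summed to 138 and 140 RPKM, with 3 higher, 2 lower and 4 without reads (Cd79a, Igll1, Ms4a1 and Pax5). Cd79b made up most of both sums, with 132 and 133 RPKM. Sdc1 was at 3.14 and 5.80 RPKM, and Igj, at 1.59 RPKM in controls and without reads in mutants, came from a single library. The erythroid markers summed to 67.2 and 87.1 RPKM, with 3 higher, 4 lower and 3 without reads (Hba-a1 and Slc4a1 among them). The near-identical globin genes Hbb-b1 and Hbb-b2, between which reads may have been divided, had 2.30 against 7.79 RPKM and 7.32 against 19.4 RPKM, respectively. Gata1 was among the 4 lower, with 32.4 and 28.6 RPKM. The part of other cells in the Klf values was not tested.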

How the data were processed

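RNA of 3 control and 4 mutant HSC libraries was measured, and the authors deposited group values in RPKM in 2 columns, per the file headers. The submitters' processing notes name the build mm10 and, among tools, edgeR and Picard; sources used here do not name the aligner, the annotation or how libraries were combined. In 8499 genes the values kept 1 mutant/control ratio (0.841) and equalled a constant of each group divided by gene length, 0.0414 RPKM in controls against 0.0349 RPKM in mutants at 1 kb. These were read as an offset of 1 read per library, in genes without reads. Approximate reads per library are RPKM times transcript length over that constant, minus 1. They are rough, because that transcript can differ in length from the authors' gene model. For Egr3, read as without reads, the same estimate gave about 25 in each group. A gene was assigned to a single library where its level above the offset gave whole reads of that library (tolerance 1e-04 reads).

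With 1 value per group there is no test, and genes were counted at 2-fold with the pseudocount, by a script tested on simulated data. Named are all members, Mettl3, other Klf and Sp genes above 1 RPKM, and the 2 to 4 genes farthest apart in each list, apart from some that are not reported here. Klf5, Sp5, Sp6, Mapk7, Map2k5, Mef2c, Maff, Srf, Egr2, Jund, S1pr1, Lyz2, Tek and Cdh5 were added after their values were seen. So were Jun, C1qb, C1qc, Cd79b, Gata1 and genes without reads. The members and all lists were chosen with earlier results of these data known. Of 23038 gene identifiers, 22959 were in RefSeq (GRCm38.p6, the assembly that mm10 names). Python 3.11.15, pandas 2.3.3 and matplotlib 3.10.9 were used. Alternatives were pseudocounts of 0.1 RPKM and none, a pair of rescalings, minima of 1 and 10 RPKM, and a 1.5-fold threshold.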

Additional observations from a re-analysis of the deposited data

How the results depend on the processing

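Klf2 and Klf6 were at least 2-fold lower and no member was at least 2-fold higher under all 7 alternatives. Klf4 joined them with a pseudocount of 0.1 RPKM, with none, and with a 1.5-fold threshold, which 10.4% of all genes passed as lower and 13% as higher. Over 4 alternatives Klf2 stayed between -2.34 and -2.09 and Klf6 between -1.60 and -1.54, while Klf4 reached -1.30, Klf7 0.79 and Klf12 -0.36 without a pseudocount, against -0.73, 0.47 and -0.08. The median of the members (-0.01) changed sign with a minimum of 1 RPKM in a group (0.06) and was -0.74 with a minimum of 10 RPKM, where 4 members remained. Lower, higher and total genes apart over the whole table numbered 1347, 1508 and 2855 with the pseudocount of 0.1 RPKM, 1674, 1981 and 3655 with none, 163, 222 and 385 with the minimum of 10 RPKM, and 1516, 1883 and 3399 at 1.5-fold, against 504, 534 and 1038. Smaller pseudocounts and thresholds let more genes pass by construction, and the minimum leaves fewer. Of the 32 counts of genes 2-fold apart in the gene lists, 10, 15, 9 and 15 moved by over 1.5 times under the same 4 alternatives and 3 under the median-ratio rescaling. Glucocorticoid-responsive genes at least 2-fold lower numbered 5 in place of 2 with either smaller pseudocount, and macrophage and monocyte markers at least 2-fold higher 6 and 7 in place of 1. No paired analysis was possible because each group has a single value with no replicate number. Leaving out replicates and other normalizations of counts could not be run for the same reason. The spread between animals is unknown for every member, and Klf12, at an estimated 47 and 43 reads per library, has the lowest read estimates.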
